A study of Mus musculus with 8 samples.

Results

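The core genes of the circadian clock were followed in hematopoietic stem cells of elektra and wildtype mice. The set was 10 genes, taken by their symbols: the activators Arntl and Clock, the repressors Per1, Per2, Per3, Cry1 and Cry2, the nuclear receptors Nr1d1 and Nr1d2, and the output gene Dbp. Each matched 1 feature of the deposited array table, which holds 30802 distinct gene symbols, and all 10 lay above the filter on low signal that left 15710 genes for testing. The elektra group was 4 arrays from mice homozygous for elektra (Slfn2 elektra/elektra), a loss-of-function mutation of Slfn2. The comparison group was 4 arrays from wildtype littermates (Slfn2 wt/wt). Both groups shared the C57Bl/6 background, and none of the mice had been treated before the cells were taken. The stem cells were sorted from c-Kit enriched bone marrow as the LSK CD9hi CD48- CD150+ population, in which LSK stands for cells without lineage markers that carry Sca-1 and c-Kit. Each array was made from about 200 pg of RNA with 12 cycles of PCR. Bones of 2 mice went into each sample according to its notes, but the overall design counts 4 mice of each genotype. The labels give neither the age of the mice nor the hour of harvest, so the position of each sample in the day is unknown here.

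The circadian clock is a transcriptional loop that most cells run. ARNTL (also called BMAL1) and CLOCK bind E-box sequences together and switch on the Per and Cry genes, whose proteins return to the nucleus and block that pair. In a second loop the products of Nr1d1 and Nr1d2 (REV-ERB alpha and beta) repress Arntl through receptor elements in its promoter, while ROR receptors activate it from the same elements. Where the clock runs, Arntl transcripts are therefore high at the time of day when those of Nr1d1 and Dbp are low, and a difference in harvest time moves them in opposite directions. In bone marrow, daily rhythms are known for the release of stem cells into blood.

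Promoter windows, searched for short motifs known from these loops, are shown for Arntl, for its repressor gene Nr1d1 and for Per1 and Cry1, genes of the negative arm. Each is the RefSeq window of build GRCm38.p6 from 250 bases before to 50 bases after an annotated start, printed 5′ to 3′ on the gene's strand, with motif matches in capitals. Arntl is shown at chr7:113207261-113207560 on the plus strand, Nr1d1 at chr11:98775328-98775627 on the minus strand, Per1 at chr11:69098699-69098998 on the plus strand and Cry1 at chr10:85185005-85185304 on the minus strand.
Arntl: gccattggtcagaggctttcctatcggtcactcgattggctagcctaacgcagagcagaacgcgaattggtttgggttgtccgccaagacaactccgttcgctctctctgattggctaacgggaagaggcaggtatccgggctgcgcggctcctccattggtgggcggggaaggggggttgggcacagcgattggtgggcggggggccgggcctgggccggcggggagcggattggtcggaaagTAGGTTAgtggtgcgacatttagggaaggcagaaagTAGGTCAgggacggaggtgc
Nr1d1: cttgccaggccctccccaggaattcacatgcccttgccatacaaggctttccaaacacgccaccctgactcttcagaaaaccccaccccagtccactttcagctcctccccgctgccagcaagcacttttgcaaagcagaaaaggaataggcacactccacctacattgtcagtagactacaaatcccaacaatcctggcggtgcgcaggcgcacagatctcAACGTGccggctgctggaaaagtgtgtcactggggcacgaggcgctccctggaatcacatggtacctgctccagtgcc
Per1: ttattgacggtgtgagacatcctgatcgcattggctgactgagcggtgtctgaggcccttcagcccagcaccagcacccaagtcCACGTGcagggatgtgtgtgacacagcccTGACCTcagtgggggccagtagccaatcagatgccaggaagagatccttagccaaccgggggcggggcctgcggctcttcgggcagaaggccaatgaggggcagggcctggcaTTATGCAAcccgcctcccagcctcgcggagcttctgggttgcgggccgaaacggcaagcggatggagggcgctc
Cry1: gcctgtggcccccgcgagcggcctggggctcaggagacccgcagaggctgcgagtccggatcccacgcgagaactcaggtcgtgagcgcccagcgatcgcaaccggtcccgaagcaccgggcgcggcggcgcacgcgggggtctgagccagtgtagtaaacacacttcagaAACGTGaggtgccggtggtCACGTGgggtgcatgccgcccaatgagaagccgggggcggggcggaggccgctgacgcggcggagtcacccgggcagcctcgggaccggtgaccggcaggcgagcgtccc

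Capitals mark 5 motifs, searched on both strands: the E-box CACGTG, its variant CACGTT, the D-box TTATGNAA, the receptor motif AGGTCA and an extended receptor element TAGGTNA, which was added after the Arntl sequence had been seen. A match on the opposite strand appears as its reverse complement, AACGTG for the variant and TGACCT for AGGTCA. The extended element can overlap AGGTCA. In Arntl the extended element began at -6 and at 31, counted from the start site, and AGGTCA at 32 overlapped the element at 31. Per1 held an E-box at -166, AGGTCA at -137 and a D-box at -24. In Cry1 an E-box lay at -60 and the variant at -79, and Nr1d1 held the variant at -28. Windows were found for 9 of the 10 genes. At least 1 window held the E-box in 2 of them, the variant in 3, the D-box in 2, AGGTCA in 4 and the extended element in 1. Among all 32851 windows the E-box was in 7.15%, the variant in 4.68%, the D-box in 3.38%, AGGTCA in 16.3% and the extended element in 8.29%. These shares are per window, whereas Arntl, Clock and Per1 each had more than 1 window in which a match could count. The cAMP response element TGACGTCA was in 1.79% of windows and in those of 0 core genes. These matches describe letters in a short window and not bound sites.

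Signals are RMA log2 values, so that a difference of 1 is a doubling, and array medians lay between 6.11 and 6.26. All 12 stem cell markers on the list used were above the filter, 5 with a higher and 7 with a lower mean in elektra. Kit was lower without overlap, at 11.81 to 11.96 on elektra arrays and 11.99 to 12.07 on wildtype arrays. Ly6a was higher without overlap, at 12.03 to 12.21 on elektra arrays and 11.87 to 12.02 on wildtype arrays. Cd48, which the sort excludes, was below the filter. Of the markers of other cells, 8 of 12 for granulocytes and monocytes, 5 of 6 for megakaryocytes and platelets, 2 of 6 for T and NK cells and 1 of 6 for B cells were above it, while Ly6g, Mpo and Cd3e were not. Also above it were 3 of 7 erythroid markers and 4 of 7 stromal and endothelial markers. Each genotype had 1 array of low Xist, an RNA made from the inactive X. These were replicate 3 of elektra, at 5.06, and replicate 3 of wildtype, at 5.37, where the others were at 10.26 or more. Slfn2 itself read 7.79 to 8.17 on elektra arrays and 7.22 to 8.41 on wildtype arrays, and since elektra is a point mutation this signal does not check the genotype.

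**Figure D1:**
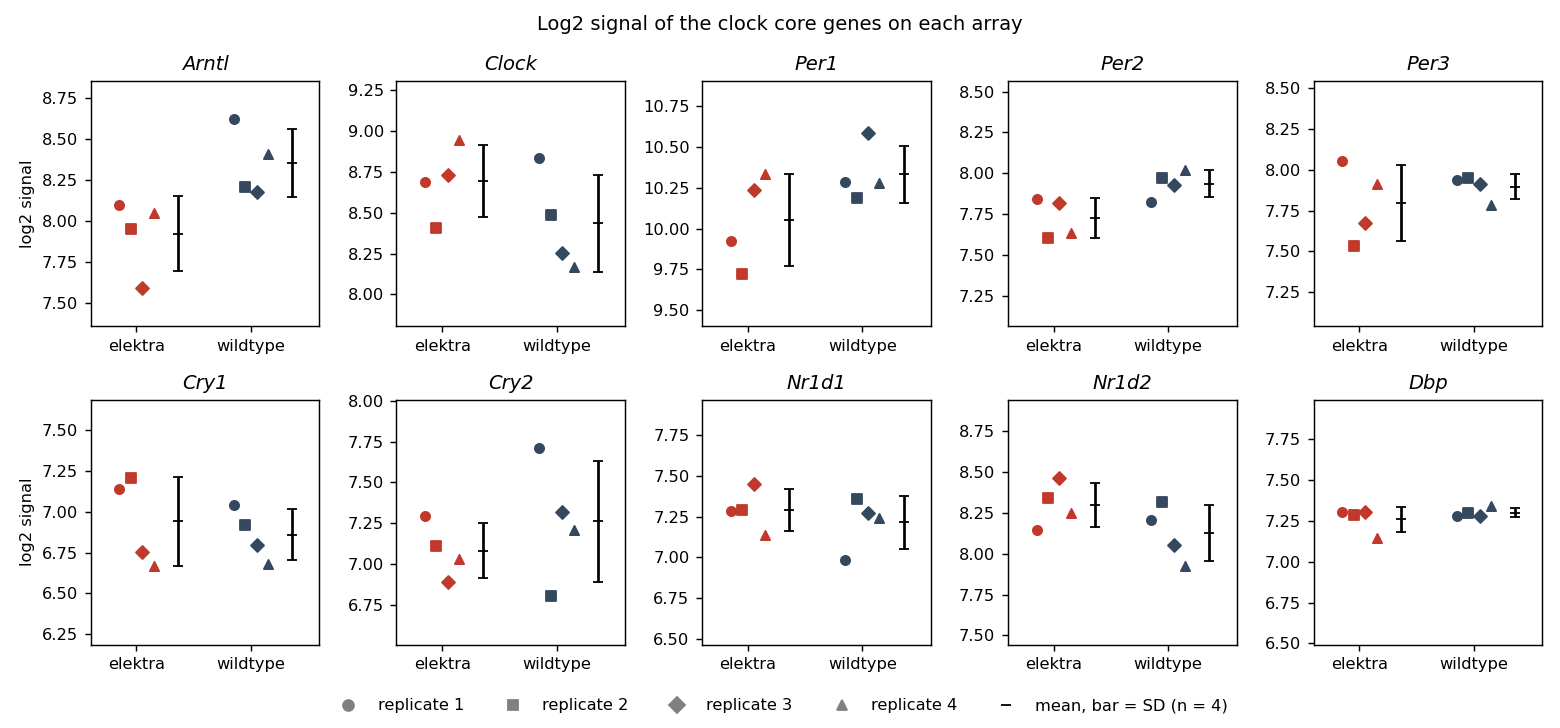
Log2 signal (vertical axis, each panel spanning the same 1.5 log2 units) of the 10 clock core genes on each of the 8 arrays, elektra left of wildtype; symbols are replicates and bars are mean ± SD (n = 4). The elektra arrays lie below the wildtype arrays without overlap for Arntl, and the groups overlap for the other 9 genes.

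The comparison of genotypes asked whether loss of Slfn2 function went with another state of the clock in stem cells. Arntl lay lower on every elektra array than on any wildtype array, Per1 and Per2 had lower means with overlapping arrays, and Clock and Nr1d2 had higher means with overlapping arrays. None of the 10 genes passed the adjusted threshold of 0.05 (limma, Benjamini-Hochberg over 15710 genes), which 0.0382% of all genes tested passed. At an unadjusted p under 0.05 the count was 1 of 10, Arntl, against 11.0% of all genes tested in either direction, 3.95% as lower and 7.02% as higher in elektra, so the share of core genes was close to the background. Groups that did not overlap were found for 1 of 10 core genes, again Arntl, and for 6.26% of all genes tested, 2.37% as lower and 3.9% as higher in elektra. Of the core genes 4 had a higher and 6 a lower mean in elektra, with a median log2 difference of -0.07, where the median of all genes tested was 0.01. Their median size of difference without regard to sign was 0.18, against 0.12 for all genes tested.

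Arntl, the activator without which the clock stops in mice, read 8.10, 7.95, 7.59 and 8.05 on elektra arrays, against 8.62, 8.21, 8.17 and 8.41 on wildtype arrays. The lowest value was that of elektra replicate 3 and the highest that of wildtype replicate 1. Means were 7.92 ± 0.23 in elektra and 8.35 ± 0.21 in wildtype (SD, n = 4 each), which gave a log2 difference of -0.43 ± 0.14 (SE), or 0.741-fold, with a 95% interval from -0.74 to -0.12. The limma p was 0.0108 before and 0.349 after adjustment over all genes, so Arntl was not called. The exact two-sided permutation p was 0.0286, the smallest that 4 against 4 arrays can give. Without the 2 arrays of low Xist the difference was -0.38, and over all settings tried it stayed between -0.49 and -0.32. In the authors' deposited table the unadjusted p of Arntl is 0.0311. The genes listed here as multipotent progenitor markers also separated the genotypes. Their mean, over 4 tested markers of 5, ran from 8.14 to 8.37 over elektra arrays and from 7.38 to 7.86 over wildtype arrays. As the lists were chosen with earlier results of these data known, such separation of a list is description only. Of these, Plac8 averaged 8.35 in elektra and 7.06 in wildtype, Cd53 differed by 0.92 and Cd34 by 0.39, all without overlap, and Flt3 by 0.20 with overlap. The mean over 5 tested megakaryocyte and platelet markers of 6 also did not overlap. It was 8.60 to 8.69 over elektra arrays and 8.27 to 8.44 over wildtype arrays. Pf4 differed by 0.61 and Itga2b by 0.39 without overlap, and Gp9, Gp1bb and Vwf by 0.01, 0.07 and 0.11 with overlap. The mean of the 2 T and NK cell markers tested did not overlap either, at 7.30 to 7.64 over elektra and 7.00 to 7.21 over wildtype arrays. Nkg7 differed by 0.57 without overlap and Lck by 0.12 with overlap, and Cd3e was below the filter. Cd48, whose protein marks multipotent progenitors, was below the filter, at 5.67 to 6.36 on elektra arrays and 5.68 to 6.16 on wildtype arrays, and the part of these 3 sets of transcripts in the Arntl difference was not tested. In RNA of a whole sorted population, fewer cells that express a gene and less of its RNA per cell cannot be told apart.

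Clock, the partner of ARNTL, lay the other way. Its arrays read 8.69, 8.41, 8.73 and 8.94 in elektra, against 8.83, 8.49, 8.25 and 8.17 in wildtype. Wildtype replicates 1 and 2 fell within the elektra range, and wildtype replicates 3 and 4 fell below it. The log2 difference was 0.26 ± 0.16 (SE) with a 95% interval from -0.10 to 0.61 (limma adjusted p = 0.569), and it was 0.17 when replicate 4 of either genotype was left out and 0.39 without wildtype replicate 1. The activator genes that can stand in for this pair, named after their values were seen, both had lower means in elektra. Npas2, a paralog of Clock, differed by -0.25 ± 0.14 and Arntl2, a paralog of Arntl, by -0.22 ± 0.12 (SE; limma adjusted p = 0.542 and 0.537). Of the 4 activator genes, 3 therefore had a lower and 1 a higher mean.

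Per1, the period gene that also answers directly to stress hormones and to cAMP signals, read 9.92, 9.72, 10.23 and 10.33 in elektra, against 10.28, 10.19, 10.58 and 10.28 in wildtype. Elektra replicates 1 and 2 lay below every wildtype array, while elektra replicates 3 and 4 lay within the wildtype range. The log2 difference was -0.28 ± 0.15 (SE; limma adjusted p = 0.507), and its 95% interval from -0.61 to 0.04 contained 0. It was -0.17 without elektra replicate 2 and -0.37 without elektra replicate 4. Immediate early genes, which share those fast inputs, mostly had lower means in elektra as well. Of 22 on the list 21 were tested, 20 with a lower mean in elektra and 9 lower at an unadjusted p under 0.05, and 0 passed the adjusted threshold. Over all genes tested, 46.9% had a lower mean and 3.95% were lower at that unadjusted p. The 4 of smallest p were the nuclear receptor gene Nr4a1 at a log2 difference of -0.71, the transcription factor genes Egr1 at -0.57 and Junb at -0.48, and the phosphatase gene Dusp1 at -0.42. The mean over the list was 8.93, 8.83, 9.30 and 8.73 on elektra arrays, against 9.35, 9.14, 9.68 and 9.07 on wildtype arrays. Replicate 3 of each genotype was the highest of its group for that mean, whereas for Per1 wildtype replicate 3 and elektra replicate 4 were the highest, and the part of the early response in the Per1 difference was not tested. Genes that respond to glucocorticoids had 2 higher and 6 lower means in elektra among 8 tested of 10, Per1 and Dusp1 included. Their median log2 difference was -0.13.

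Per2, the second period gene, had the smallest unadjusted p after Arntl, 0.0504. The elektra arrays were at 7.84, 7.61, 7.82 and 7.64 and the wildtype arrays at 7.82, 7.97, 7.93 and 8.02. Only wildtype replicate 1 reached into the elektra range. Means were 7.73 ± 0.12 in elektra and 7.94 ± 0.09 in wildtype (SD, n = 4 each), a log2 difference of -0.21 ± 0.10 (SE; limma adjusted p = 0.456). In the authors' deposited table its unadjusted p is 0.0297. Per3, whose loss alters the mouse clock little, was at 8.05, 7.54, 7.68 and 7.92 in elektra, against 7.94, 7.95, 7.91 and 7.79 in wildtype. Its elektra arrays spread on both sides of the wildtype arrays, and the difference of -0.10 ± 0.12 (SE) did not pass (limma adjusted p = 0.777). Single arrays moved it from -0.19 without elektra replicate 1 to -0.02 without elektra replicate 2.

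The cryptochrome genes, whose proteins are the main repressors of the ARNTL and CLOCK pair, differed little between genotypes for the spread they had. Cry1 read 7.14, 7.21, 6.75 and 6.66 in elektra, against 7.04, 6.92, 6.80 and 6.68 in wildtype, and the wildtype range lay inside the elektra range. Its log2 difference was 0.08 ± 0.14 (SE; limma adjusted p = 0.856) and turned to -0.0059 without elektra replicate 2. Cry2 read 7.29, 7.11, 6.89 and 7.03 in elektra, against 7.71, 6.81, 7.32 and 7.21 in wildtype. Wildtype replicates 1 and 2 held both ends of its range, the highest and the lowest of the 8 arrays. The difference was -0.18 ± 0.17 (SE; limma adjusted p = 0.716), and it lay between -0.03 without wildtype replicate 1 and -0.33 without wildtype replicate 2. Among the other repressor genes of the list Ciart differed by 0.08 and Bhlhe40 by -0.21, both chosen after their values were seen, and Bhlhe41 was below the filter. Of the 7 repressor genes tested 2 had a higher and 5 a lower mean, and 0 reached an unadjusted p under 0.05.

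The nuclear receptor genes that repress Arntl had slightly higher means in elektra. Nr1d1 was at 7.29, 7.29, 7.45 and 7.13 in elektra, against 6.98, 7.36, 7.27 and 7.24 in wildtype, and wildtype replicate 1 was the lowest of all. The difference was 0.08 ± 0.11 (SE; limma adjusted p = 0.821), with a 95% interval from -0.17 to 0.32, and it was -0.00062 without wildtype replicate 1. Nr1d2 was at 8.14, 8.34, 8.46 and 8.25 in elektra, against 8.21, 8.32, 8.05 and 7.93 in wildtype. Wildtype replicates 1 and 2 fell within the elektra range and wildtype replicates 3 and 4 below it. Its difference was 0.17 ± 0.11 (SE), with a 95% interval from -0.08 to 0.42 (limma adjusted p = 0.591). It was 0.11 without wildtype replicate 4 and 0.09 without the 2 arrays of low Xist. Rora, which encodes a receptor that activates Arntl through the same elements and was chosen after its value was seen, differed by -0.23 ± 0.14 (SE; limma adjusted p = 0.577), and Rorb was below the filter.

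Dbp, a transcription factor gene with large daily swings in liver and other tissues, hardly varied in these cells. It read 7.30, 7.29, 7.30 and 7.15 in elektra, against 7.28, 7.30, 7.28 and 7.34 in wildtype. Apart from elektra replicate 4, all arrays lay between 7.28 and 7.34, and the range over all 8 was 0.19 log2. Its spread within genotypes, 0.06 as a residual SD, put it among the lowest 1.46% of the genes tested. The difference was -0.04 ± 0.08 (SE; limma adjusted p = 0.884). Elektra replicate 4 also had the highest mean of granulocyte and monocyte markers, 7.39, against 6.63 to 6.74 on the other elektra arrays and 6.75 to 7.03 on wildtype arrays, over 8 tested markers of 12. On that array the neutrophil granule gene Ngp was at 8.78, against 5.32 to 6.08 on the other elektra arrays and 5.65 to 7.10 on wildtype arrays. Camp and S100a8, below the filter on average, were at 8.02 and 8.24 on it and between 4.93 and 5.79 on the other elektra arrays. On wildtype arrays Camp was at 5.05 to 6.47 and S100a8 at 5.27 to 6.89. Wildtype replicate 4 was the highest of its group for Camp, S100a8 and Ngp, and also for Dbp, at 7.34. Ly6g was at 4.98 on elektra replicate 4. Of the other tested markers, Elane, S100a9, Csf1r and Itgam also had their highest elektra value on elektra replicate 4. Prtn3, at 7.68, was there the lowest of all 8 arrays. Lyz2 and Ctsg, at 7.98 and 6.20, lay within the range of the other elektra arrays. Without elektra replicate 4 Dbp differed by -0.0025, and the part of such transcripts in its value was not tested. The related PAR bZIP gene Tef differed by -0.02, and Hlf, which is also a regulator of stem cells, by -0.14, both chosen after their values were seen. Nfil3, which encodes their antagonist, had the smallest p of that list and differed by -0.18 ± 0.10 (SE; limma adjusted p = 0.542).

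**Figure D2:**
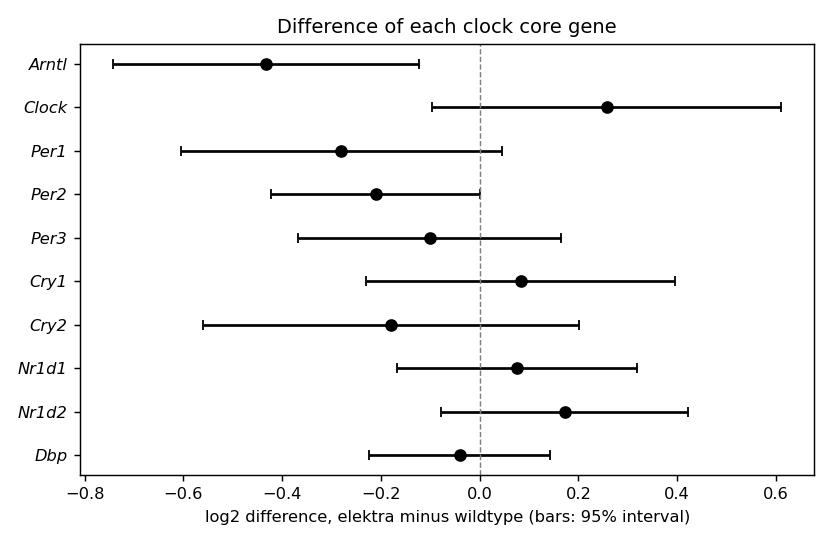
Log2 difference (horizontal axis), elektra minus wildtype, of the 10 clock core genes with 95% intervals from limma. The interval of Arntl, from -0.74 to -0.12, is the one that does not reach 0, and 9 intervals contain 0.

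The spread of the core genes within genotypes was set beside that of all genes. Their median residual SD was 0.20 log2, against 0.17 for all genes tested, and the median range over the 8 arrays was 0.54 in both sets. Cry2, at a residual SD of 0.29, and Clock, at 0.26, varied most, and Dbp and Per2, at 0.06 and 0.11, varied least. Of all genes tested, 86.9% had a residual SD at or below that of Cry2.

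Activators were then set beside repressors across arrays as a check on the time of harvest, with Arntl against each of the other 9 core genes. Arntl was negatively related to Nr1d1, at Pearson r = -0.76 (exact permutation p = 0.0337, adjusted p = 0.226 over 9 relations) and Spearman rho = -0.60 (exact permutation p = 0.132, adjusted p = 0.397). This relation rested on elektra replicate 3 and wildtype replicate 1, the arrays farthest from the median of Arntl, since r was 0.12 without them. With each genotype centred on its own mean, r was -0.86 (exact permutation p = 0.0174, adjusted p = 0.156). Arntl and Nr1d2 had r = -0.65 (exact permutation p = 0.0754, adjusted p = 0.226) and rho = -0.67 (exact permutation p = 0.0831, adjusted p = 0.374), with r = -0.77 without those arrays and -0.45 within genotypes. With Cry2 the relation was positive, at r = 0.69 (exact permutation p = 0.0604, adjusted p = 0.226) and rho = 0.50 (exact permutation p = 0.216, adjusted p = 0.437), and r was 0.08 without those arrays.

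With the other 6 core genes Pearson r over all arrays was smaller in size. For Arntl and Per2 r was 0.40 over the 8 arrays, -0.39 within genotypes and 0.90 without the arrays farthest from the median of Arntl. Their rho was 0.69 (exact permutation p = 0.0694, adjusted p = 0.374). For Arntl and Per1 r was 0.26 over the 8 arrays, -0.32 within genotypes and 0.51 without those arrays. In a running clock Dbp would be opposed to Arntl over samples taken at different hours, and the hours are unknown here. The r of Dbp with Arntl was 0.13 over all arrays and -0.26 within genotypes. Since Dbp ranged over 0.19 log2 in all, these values cannot decide whether a clock ran. For Clock, Per1, Per2, Per3, Cry1 and Dbp the adjusted exact permutation p of r lay between 0.526 and 0.836, so none of the 9 relations passed. Among all 45 pairs of core genes, 20 correlations within genotypes were positive and 25 negative, over arrays that share their preparation and normalization.

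**Figure D3:**
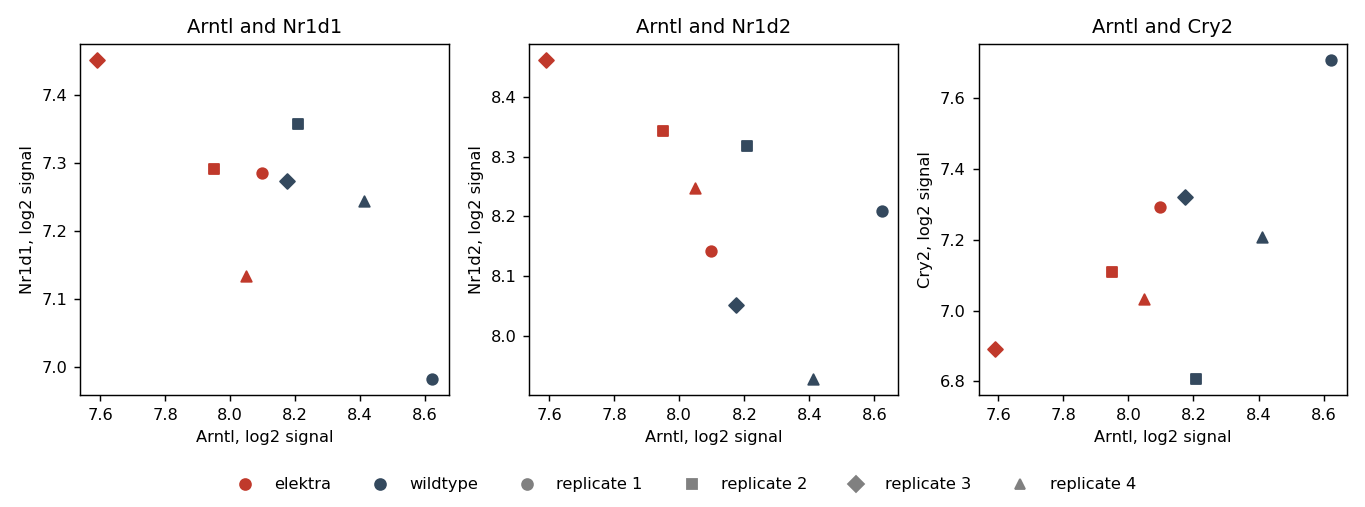
Log2 signal of Nr1d1, Nr1d2 and Cry2 (vertical axes) against that of Arntl (horizontal axis) on the 8 arrays, elektra and wildtype by colour and replicates by symbol. Elektra replicate 3 and wildtype replicate 1 hold the ends of the Arntl axis and without them r is 0.12 for Nr1d1 and 0.08 for Cry2.

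The genes whose pattern over the 8 arrays was most like that of Arntl were not clock genes. Among 13117 genes ranked, r with Arntl was 0.98 for St3gal1, a sialyltransferase gene, 0.97 for Gltscr1l and 0.96 for Clec1a, a C-type lectin gene. The most opposed were the immunoglobulin gene segment Igkv4-91 at -0.98, Mkrn3 at -0.95 and Rrp9, a gene of ribosomal RNA processing, at -0.94. Cry2 stood at rank 444 from the top, and Nr1d1 was in the lowest 1.42%. Over so few arrays such values describe these arrays and nothing more.

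Further genes of the clock were taken from lists by role. They named 42 genes besides the core set, of which 39 were tested, and Bhlhe41, Rorb and Fbxl21 were below the filter. Of these 39, 17 had a higher and 22 a lower mean in elektra, and their median log2 difference was -0.02. At an unadjusted p under 0.05, 3 were higher and 1 was lower, together 10.3% against 11.0% of all genes tested, and 0 passed the adjusted threshold. Nampt, an output gene whose enzyme makes NAD, read 7.75, 7.51, 7.35 and 7.19 in elektra, against 7.10, 7.11, 7.01 and 6.96 in wildtype. Nampt did not overlap between genotypes, its lowest elektra array standing above its highest wildtype array, with a log2 difference of 0.41 ± 0.12 (SE; limma adjusted p = 0.321). Parp1, which encodes a DNA repair enzyme that also modifies CLOCK, read 9.28, 9.06, 9.17 and 9.39 in elektra, against 9.05, 8.94, 8.56 and 8.97 in wildtype. Its groups did not overlap either, and the difference was 0.34 ± 0.12 (SE; limma adjusted p = 0.371). Ddb1, a subunit of a ubiquitin ligase, differed by 0.30 ± 0.11 (SE; limma adjusted p = 0.392), with elektra replicate 3 and wildtype replicate 1 overlapping. Among the 9 tested kinase and ubiquitin ligase genes that set the stability of PER and CRY proteins, 4 had a higher and 5 a lower mean. The one of smallest p was Csnk2b, a casein kinase subunit gene, at 0.16 ± 0.09 (SE; limma adjusted p = 0.528).

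**Figure D4:**
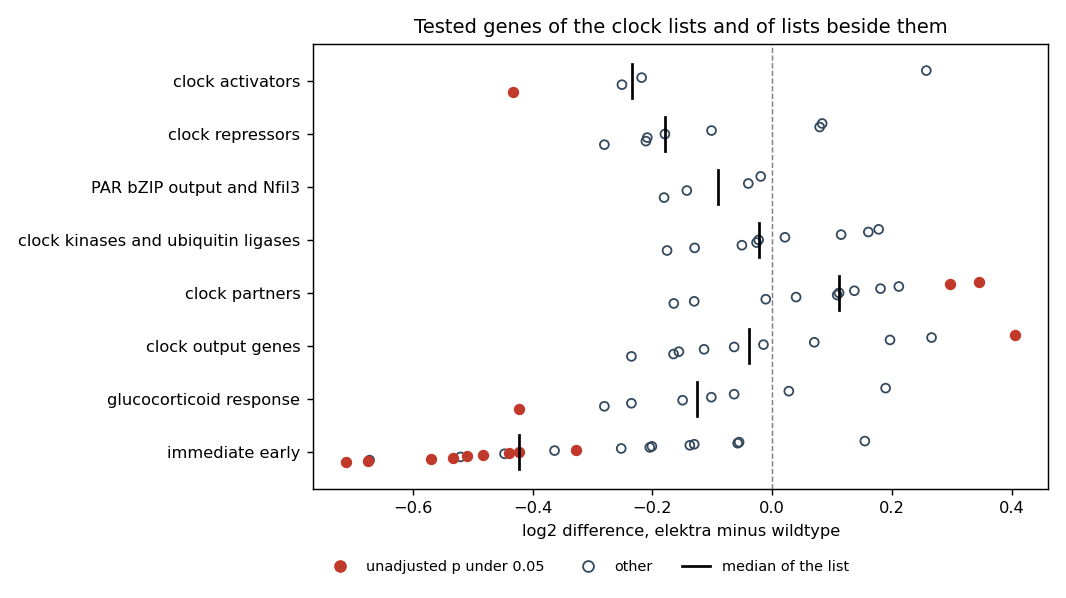
Log2 difference (horizontal axis), elektra minus wildtype, of every tested gene of 6 clock lists and of 2 lists of fast-responding genes. Core genes are included except Nr1d1 and Nr1d2, whose list, that of the REV-ERB and ROR genes, is not shown. Filled points have an unadjusted limma p under 0.05 and vertical bars are list medians. List medians run from -0.42 for immediate early genes to 0.11 for clock partners, and filled points are on both sides of 0.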

How the data were processed

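RNA of sorted stem cells was hybridised to Affymetrix arrays, 1 per sample. The authors made the log2 signals with RMA in Affymetrix Expression Console 1.4, per the submitters' processing notes. The deposited workbook has 33793 features, 32074 with 1 gene symbol. It also holds the authors' log2 ratio, linear fold change and unadjusted p-value. Array design and annotation release: not given in the sources used here.

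Features with 1 symbol entered the test where their mean was at or above the median of feature means, 6.17 log2, keeping the feature of highest mean per symbol. Genotypes were compared with limma 3.58.1 in R 4.3.3 (lmFit, eBayes), two-sided, without covariates, with Benjamini-Hochberg adjustment and a threshold of 0.05. The procedure was tested on simulated data. P-values measure the spread between these arrays, whose number limits the precision. The core genes and the gene lists were chosen with earlier results of these data known. Named were the core genes, from each other list the members at an unadjusted p under 0.05 (at most 4, or else the 1 of smallest p), and the 3 genes most like and most opposed to Arntl (predicted genes and small RNAs left out). Exceptions, chosen after their values were seen, are named as such in the text. Some genes that the rule names are not reported here. Alternatives were other filters, normalizations, eBayes settings, array weights, features averaged per gene, the deposited series table, replicate number as a block and leaving out arrays.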

Additional observations from a re-analysis of the deposited data

Results flagged for a closer look

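One value stood apart from its group. Dbp was at 7.15 on elektra replicate 4 and between 7.29 and 7.30 on the other 3 elektra arrays, a gap that took 0.909 of the range of the group, above Dixon's 95% critical value for 4 samples. It was the one such value among 66 groups of 4 arrays (33 genes by genotype), and chance gives about 1 in 20 groups.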

How the results depend on the processing

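The 10 differences of core genes kept their sign in 173 comparisons with another setting and turned in 3, and 0 core genes passed the adjusted threshold in any of them. Cry1 ran from -0.0059 without elektra replicate 2 to 0.18 without elektra replicate 4, Nr1d1 ran from -0.00062 without wildtype replicate 1 to 0.13 without elektra replicate 4, and the sign turned for Dbp with arrays centred on their medians (0.0085). Arntl was below an unadjusted p of 0.05 in all 19 settings, with adjusted p from 0.239 to 0.539. The number of core genes at that unadjusted p, 1 as reported, was 2 with the stricter filter (6 core genes tested), quantile normalization, array weights or replicate number as a block, where the block added Per1 and the others Per2. With single arrays left out it ranged from 1 to 3: it was 2 without elektra replicate 1, 3 or 4 or wildtype replicate 2, and 3 without wildtype replicate 1. Without the 2 arrays of low Xist, a setting chosen after the data were seen, it was 1. Among the other clock genes the count of 4 became 2 with the stricter filter and ranged from 2 to 7 without single arrays, with 2 without elektra replicate 4 and 7 without wildtype replicate 1. Relations with Arntl turned sign within genotypes for Clock (0.37), Per1 (-0.32), Per2 (-0.39) and Dbp (-0.26). That of Cry1 turned with quantile normalization (-0.0038), and without the 2 arrays farthest from the median of Arntl the relations of Cry1 (-0.60) and Nr1d1 (0.12) turned. The cause of these changes was not tested. Same-numbered arrays correlated at -0.0017 to 0.14 in their deviations from genotype means. Over 4 arrays of each genotype such values cannot decide whether replicate numbers pair the samples, and the labels do not state a pairing. Centring arrays on their medians moved the median difference of all genes from 0.01 to 0.06.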

Other observations

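Dbp had the same signal, to the last deposited digit, on wildtype replicates 1 and 3. Such a tie between arrays was found for 62 of 15710 genes tested, or 0.395%, and for no other core gene.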
